A study of Homo sapiens with 6 samples.

Results

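Dual-specificity phosphatases were followed in SU-DHL-4, an established human B-cell line of diffuse large B-cell lymphoma, in cells labelled KD and in cells labelled CON. The 10 members, DUSP1, DUSP2, DUSP4, DUSP5, DUSP6, DUSP10, DUSP12, DUSP16, DUSP22 and DUSP28, were taken by gene name from the authors' deposited table of 29489 genes. They were chosen by their FPKM in this same contrast, so all their values here are a description and carry no test. FPKM counts sequenced fragments scaled by library size and by transcript length, so levels of different genes can be set side by side. A row was found for 9 of the 10 members. DUSP4 was not analysed here.

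The labels give 3 KD and 3 CON samples of polyadenylated RNA and state neither the gene that KD refers to, nor the agent, the time after it, nor whether KD is 1 clone or separate cultures. The series is about the transcription factor ZHX2 and the amino acid transporter chain SLC3A2, and the cells were sequenced to look for pathways that differ between KD and CON. Replicate 1 of each group held no measurement of its own: it equalled the mean of replicates 2 and 3 divided by 1.2 in 29489 of 29489 genes in KD and by 1.1 in 29488 in CON, within a relative tolerance of 1e-09, ZHX2 being the exception. All values below are therefore from 4 libraries, replicates 2 and 3 of KD and of CON (n = 2 each), and the spread between them may be technical.

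Mitogen-activated protein kinases, the ERK, JNK and p38 families, carry growth and stress signals and are switched on by phosphates on a threonine and a tyrosine. Dual-specificity phosphatases remove both phosphates and so switch the kinases off. The typical members have a kinase-binding domain beside the catalytic domain, and several of their genes are themselves switched on by the signal, which makes them feedback brakes. The atypical members lack the kinase-binding domain, and some act on other substrates.

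In the libraries as a whole, FPKM summed to 272992 and 273768 in KD and to 267854 and 267622 in CON, and the number of reads behind them is unknown. Log2 values correlated across genes at 0.99 within each group and at 0.937 to 0.939 between groups. ZHX2 stood at 10.96 and 11.04 FPKM in KD, against 38.5 and 36.7 FPKM in CON, but its row is the one that departs from the replicate 1 rule, and the authors' deposited table lists its fold change as -4.62, which no ratio can be. The level of ZHX2 is therefore no safe test of which cells carry the knockdown. SLC3A2 stood at 26.6 and 27.4 FPKM in KD, against 74.9 and 75.5 FPKM in CON. All 11 B cell markers were at 1 FPKM or more in all 4 libraries, with summed levels of 703 and 715 FPKM in KD and 890 and 900 FPKM in CON; 2 of them, MS4A1 and BCL6, rose in KD and 4, CD79A and CD79B among them, fell. Of 7 myeloid markers 5 had a row and 0 reached 1 FPKM in any library, with summed levels of 0.523 and 0.498 FPKM in KD and 0.0502 and 0.0542 FPKM in CON. Of 9 T and NK cell markers 5 had a row, with summed levels of 3.95 and 3.72 FPKM in KD and 3.38 and 3.63 FPKM in CON. Of 9 epithelial cell and fibroblast markers 4 had a row, with summed levels of 7.68 and 7.17 FPKM in KD and 6.42 and 6.60 FPKM in CON. In this last list 3 markers were at 1 FPKM or more in all 4 libraries, of which LUM and TAGLN rose in KD and DCN fell. Genes with a mitochondrial (MT-) name took 29.9% and 30.3% of the FPKM sum in KD and 25.9% and 25.6% in CON, which lowers the FPKM of all other genes in KD by comparison. The part of these markers and shares in the values of the DUSP genes was not tested beyond the rescaling without MT- genes.

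The members differed between KD and CON in both directions. DUSP1, DUSP2, DUSP5, DUSP6 and DUSP10 lay above both CON libraries in both KD libraries, DUSP12, DUSP16 and DUSP28 lay below, and DUSP22 overlapped. Of all 11916 tested genes, 38.8% lay above and 42.9% lay below in this sense, and since the members were picked on this contrast nothing is read from their count. In a bulk sample, a change in the number of cells that express a gene and a change in RNA per cell cannot be told apart.

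**Figure D1:**
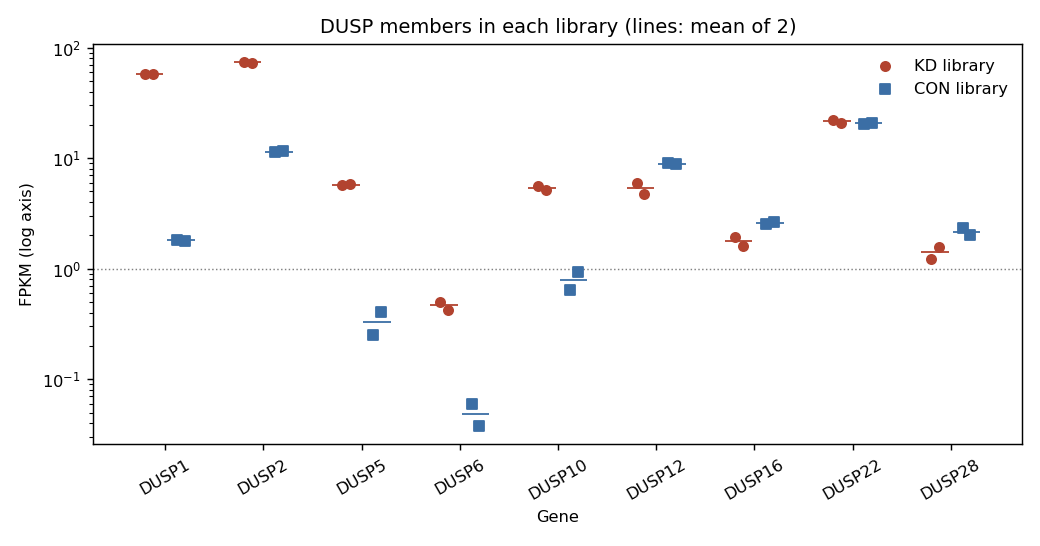
FPKM (log axis) of the 9 members with values, in KD libraries (red circles) and CON libraries (blue squares); short lines are means of 2 libraries and the dotted line is 1 FPKM. DUSP1 sits at 57.4 and 58.1 FPKM in KD, against 1.82 and 1.79 FPKM in CON, and DUSP22 overlaps between the groups.

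DUSP1, also called MKP-1, is a nuclear phosphatase of p38, JNK and ERK and an immediate early gene. It lies on chromosome 5, 172768090 to 172771195, minus strand (ENSG00000120129; positions of all members are from GENCODE 29 on GRCh38). It stood at 57.4 and 58.1 FPKM in KD, against 1.82 and 1.79 FPKM in CON. The means were 57.8 ± 0.495 FPKM in KD and 1.80 ± 0.0217 FPKM in CON (SD, n = 2 each), a 32.1-fold higher level in KD. On the log2(FPKM + 1) scale the difference was 4.39, rank 7 from the highest among the 11916 tested genes. The libraries of each group were close together, a spread that may be technical. DUSP1 was chosen by its values in this contrast, so the gap between groups is not weighed against that spread.

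DUSP2, known as PAC-1, is a nuclear phosphatase of activated lymphocytes and other blood cells (ENSG00000158050, chromosome 2, 96143166 to 96145440, minus strand). Its level was 73.7 and 73.2 FPKM in KD, against 11.3 and 11.6 FPKM in CON. With means of 73.4 ± 0.352 FPKM in KD and 11.4 ± 0.187 FPKM in CON (SD, n = 2 each), it was 6.43-fold higher in KD. DUSP2 was thus the most abundant member in KD, and already the second most abundant in CON, where DUSP1 ranked below DUSP28.

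DUSP1 and DUSP2 are both compact genes of 4 exons, spanning 3106 and 2275 bases, against a median span of 30748 bases and a median of 9 exons over 9731 tested genes with a coding transcript. Of the 9731 genes, 18.7% have 4 exons or fewer. DUSP28, lower in KD, is also compact (3961 bases, 2 exons), while DUSP10, higher in KD, spans 40753 bases with 4 exons. Compactness is thus not particular to the members higher in KD. The upstream sequences of DUSP1 and DUSP2 are shown because they are the members with the highest levels in KD, with DUSP22 beside them as the member that hardly differed. Each is the 250 bases before the RefSeq start on GRCh38.p14, 5′ to 3′ on the strand of the gene. The windows are chr5:172771196-172771445 (minus strand), chr2:96145441-96145690 (minus strand) and chr6:292237-292486 (plus strand). Capitals mark matches, on either strand, to the cyclic AMP response element (CRE, TGACGTCA), to its core (TGACG), which the full element contains on both strands, and to the TATA box (TATAAA).
DUSP1: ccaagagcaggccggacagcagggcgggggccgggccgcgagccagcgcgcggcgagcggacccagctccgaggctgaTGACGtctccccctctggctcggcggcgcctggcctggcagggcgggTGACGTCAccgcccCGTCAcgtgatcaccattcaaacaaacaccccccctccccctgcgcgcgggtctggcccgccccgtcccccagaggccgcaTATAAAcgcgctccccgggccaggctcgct
DUSP2: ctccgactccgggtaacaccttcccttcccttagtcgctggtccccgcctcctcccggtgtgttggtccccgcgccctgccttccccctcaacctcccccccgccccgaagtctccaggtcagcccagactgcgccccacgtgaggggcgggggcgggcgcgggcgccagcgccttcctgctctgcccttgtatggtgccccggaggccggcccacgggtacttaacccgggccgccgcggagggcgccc
DUSP22: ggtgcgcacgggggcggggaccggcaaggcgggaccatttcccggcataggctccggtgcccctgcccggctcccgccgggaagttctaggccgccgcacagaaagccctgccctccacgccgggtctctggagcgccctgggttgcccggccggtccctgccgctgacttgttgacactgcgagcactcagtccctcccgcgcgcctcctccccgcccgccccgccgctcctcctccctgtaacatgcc

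The DUSP1 window held a full CRE 125 to 118 bases before the start, further CRE cores at 172 to 168 and at 111 to 107 bases, and a TATA box 30 to 25 bases before the start. The DUSP2 and DUSP22 windows held none of these letters. Of 35116 promoter windows of the same length, 1.65% held the full CRE, 21.2% the core and 10.7% the TATA box. RefSeq windows were at hand for 7 of the 10 members, DUSP10 and DUSP28 having 2 starts each, so for 9 windows in all. Outside DUSP1, a CRE core was matched once, in the window of the first DUSP28 start. The loose NF-kB pattern, GGG and CC with any 5 bases between them, was matched in the windows of all 7 members, though not at every start, and in 54.4% of all windows. The AP-1 site TGANTCA (6.57% of all windows), the ETS site CCGGAAG (8.52%) and the CArG box (1.16%) were matched in 0 of the 9. A match describes letters in the window and is not a measured binding site.

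**Figure D2:**
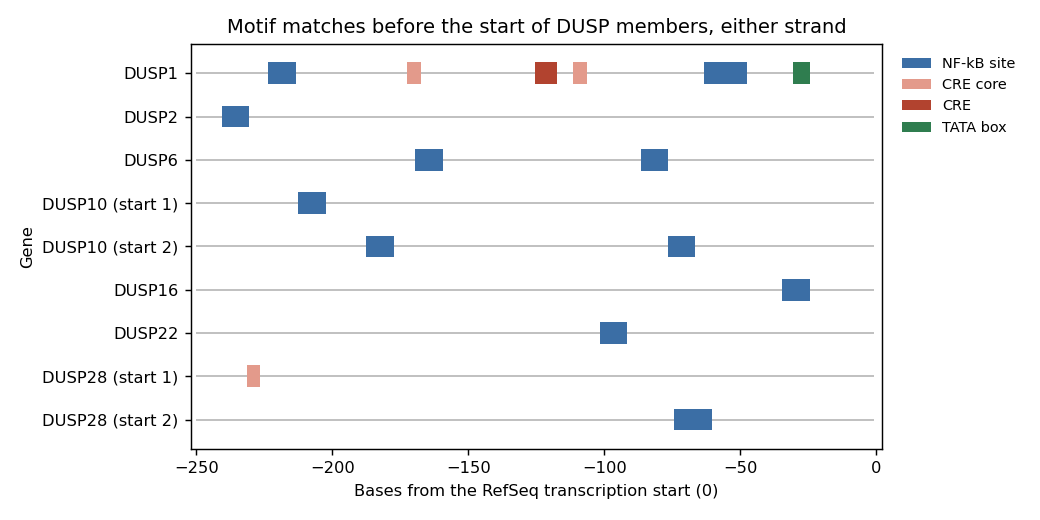
Matches on either strand to the CRE, its core, the TATA box and the NF-kB pattern in the 250 bases before each RefSeq start of 7 members, with distance from the start in bases on the x axis; the first start of DUSP10 and DUSP28 has the lower coordinate. DUSP1 is the window with a CRE (125 to 118 bases before the start) and a TATA box (30 to 25 bases).

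DUSP5 is a nuclear phosphatase that acts on ERK (ENSG00000138166, chromosome 10, 110497838 to 110511544, plus strand). It stood at 5.71 and 5.77 FPKM in KD, against 0.253 and 0.403 FPKM in CON, so it passed 1 FPKM only in KD. Means of 5.74 ± 0.0455 FPKM in KD and 0.328 ± 0.106 FPKM in CON (SD, n = 2 each) gave a 17.5-fold higher level in KD. The log2(FPKM + 1) difference of 2.35 understates this: with a pseudocount of 0.1 it was 3.79. The CON libraries differed from each other by more than the KD libraries did, at values too low to be measured closely.

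DUSP6, the cytoplasmic ERK phosphatase MKP-3 and a common readout of ERK activity, was rare in this line (ENSG00000139318, chromosome 12, 89347232 to 89353271, minus strand). Its level was 0.505 and 0.427 FPKM in KD, against 0.0595 and 0.0376 FPKM in CON. Both KD libraries lay above both CON libraries, with a ratio of means of 9.59, but the gene stayed under 1 FPKM in all 4 libraries and did not enter the fit over all genes.

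DUSP10 and DUSP16 share a preference for JNK and p38 over ERK, yet they differed in opposite directions. DUSP10, or MKP-5 (ENSG00000143507, chromosome 1, 221701424 to 221742176, minus strand), stood at 5.58 and 5.18 FPKM in KD, against 0.636 and 0.939 FPKM in CON. Its means of 5.38 ± 0.281 FPKM in KD and 0.787 ± 0.215 FPKM in CON (SD, n = 2 each) were 6.83-fold apart. Like DUSP5, DUSP10 passed 1 FPKM only in KD, so its CON values are low and its fold is uncertain. DUSP16, or MKP-7 (ENSG00000111266, chromosome 12, 12474210 to 12562383, minus strand), stood at 1.94 and 1.62 FPKM in KD, against 2.55 and 2.66 FPKM in CON. Its mean of 1.78 ± 0.229 FPKM in KD was 1.47-fold lower than its 2.60 ± 0.0762 FPKM in CON (SD, n = 2 each). DUSP10 was thus the rarer of this pair in CON and the more abundant in KD.

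Among the atypical members, DUSP12, which carries a zinc-binding domain, was lower in KD (ENSG00000081721, chromosome 1, 161749758 to 161757238, plus strand). It stood at 5.97 and 4.70 FPKM in KD, against 8.95 and 8.84 FPKM in CON, 1.67-fold lower by the ratio of means. The KD libraries stood apart from each other more than the CON libraries did, with a coefficient of variation of 16.8% in KD and 0.878% in CON. For comparison, the median coefficient of variation of 10802 genes with a mean of 1 FPKM or more in both groups was 3.94% in KD and 3.32% in CON.

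DUSP28, an atypical phosphatase with little described function, stood at 1.22 and 1.58 FPKM in KD, against 2.31 and 2.01 FPKM in CON, 1.54-fold lower (ENSG00000188542, chromosome 2, 240560054 to 240564014, plus strand). All 3961 bases of DUSP28 lie inside ANKMY1 on the opposite strand, and ANKMY1 itself stood at 1.62 and 1.42 FPKM in KD and 1.54 and 1.89 FPKM in CON. The strand setting of the authors' counting is not known, so the level of DUSP28 is uncertain. The antisense genes over DUSP1 and DUSP6 and the noncoding gene that overlaps DUSP16 were at or below 0.327 FPKM in every library.

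DUSP22, or JKAP, an atypical phosphatase that lowers T cell receptor signalling and is rearranged in some T-cell lymphomas, hardly differed (ENSG00000112679, chromosome 6, 291630 to 351355, plus strand). It stood at 22.2 and 20.8 FPKM in KD, against 20.5 and 20.9 FPKM in CON. The groups overlapped, and the ratio of means was 1.04. DUSP22 was the most abundant member in CON and stood behind DUSP2 and DUSP1 in KD.

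The order of levels in KD was DUSP2, DUSP1, DUSP22, DUSP5, DUSP10, DUSP12, DUSP16, DUSP28 and DUSP6. In CON it was DUSP22, DUSP2, DUSP12, DUSP16, DUSP28, DUSP1, DUSP10, DUSP5 and DUSP6. Neighbours in either order had library values that did not overlap, except DUSP10 and DUSP12 in KD, at means of 5.38 and 5.33 FPKM. The ratio of DUSP1 to DUSP2 was 0.779 and 0.794 in KD, against 0.161 and 0.155 in CON. DUSP1 was 2.58 and 2.80 times DUSP22 in KD, against 0.0885 and 0.0857 times in CON.

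Summed over all 21 listed genes with a DUSP name, FPKM reached 203.4 and 202.9 in KD, against 77.7 and 79.9 in CON, a ratio of 2.58. DUSP1 and DUSP2 made up most of the difference. DUSP1 took 28.2% and 28.7% of the sum in KD, against 2.34% and 2.24% in CON. DUSP2 took 36.2% and 36.1% in KD, against 14.5% and 14.5% in CON, while the share of DUSP22 was 10.9% and 10.2% in KD, against 26.4% and 26.1% in CON. The 6 typical members summed to 145 ± 0.377 FPKM in KD and 17.0 ± 0.547 FPKM in CON, and the 3 atypical members with values to 28.2 ± 1.68 FPKM in KD and 31.7 ± 0.0727 FPKM in CON (SD, n = 2 each).

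**Figure D3:**
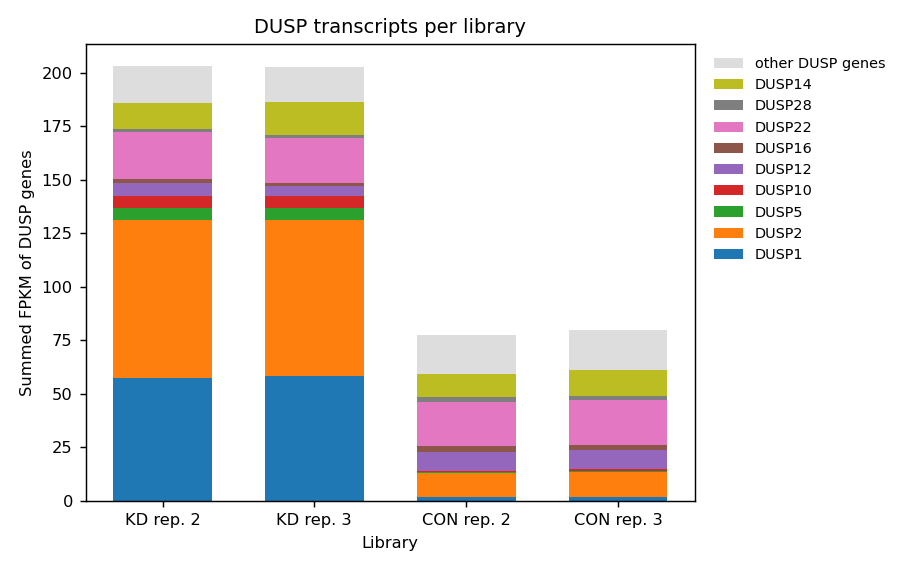
Summed FPKM of the 21 listed DUSP genes per library, KD libraries left and CON libraries right, stacked by gene with DUSP6 inside the grey remainder. The KD bars reach 203.4 and 202.9 FPKM and the CON bars 77.7 and 79.9 FPKM, and DUSP1 and DUSP2 are the bottom layers.

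Of the 12 DUSP genes outside the list of members, 5 passed the filter of 1 FPKM in at least 2 libraries and were tested with limma over all 11916 genes. The background of that test was wide, with 27.6% of all tested genes called higher and 31.1% called lower in KD at an adjusted p under 0.05. Of the 5 tested genes 0 rose, also at an unadjusted limma p under 0.05, and 1 fell. The one that fell was DUSP8P5, a pseudogene of DUSP8, at 1.14 and 0.504 FPKM in KD, against 2.60 and 2.58 FPKM in CON (log2 difference -0.999, SE 0.184, limma adjusted p = 0.00892), and reads shared with related genes leave its level uncertain. The 4 others did not pass, though without KD replicate 2 the test called 1 gene, DUSP14, higher, and without KD replicate 3 it called DUSP11 lower beside DUSP8P5, 2 in all. With no filter on low values, DUSP8P5 itself did not pass. DUSP14, an atypical phosphatase, stood at 12.2 and 15.3 FPKM in KD, against 10.9 and 12.1 FPKM in CON. DUSP7, the cytoplasmic ERK phosphatase most like DUSP6, was at 5.99 and 5.20 FPKM in KD and at 5.16 and 5.43 FPKM in CON. DUSP3, an atypical phosphatase of ERK and JNK, was at 3.96 and 3.48 FPKM in KD and at 3.47 and 3.44 FPKM in CON. DUSP11, which acts on RNA ends, was at 3.84 and 4.82 FPKM in KD and at 4.86 and 4.74 FPKM in CON. This remainder was defined by leaving out genes that had been picked on their values, so its small differences are no separate evidence.

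**Figure D4:**
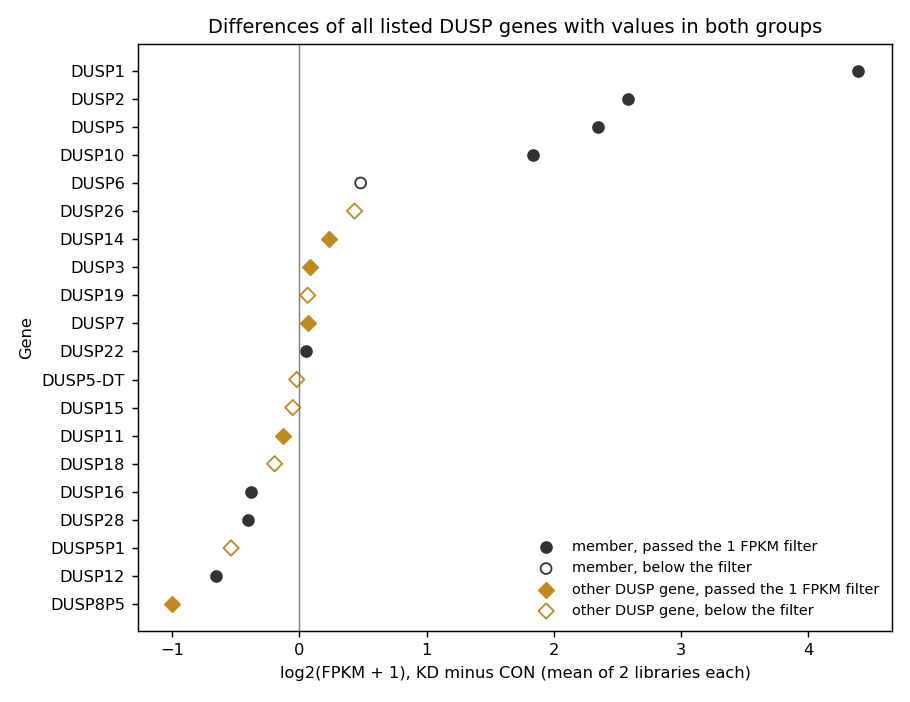
Difference of log2(FPKM + 1), KD minus CON, for the 20 DUSP genes with values above 0 in both groups; circles are members, diamonds other DUSP genes, and open symbols genes under the filter of 1 FPKM in at least 2 libraries. DUSP1 lies farthest right at 4.39 and DUSP8P5 farthest left at -0.999.

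Of 21 MAP kinases and the MAP2 kinases that activate them, 17 were tested, of which 5 rose and 5 fell, with a median log2 difference of -0.07, against -0.02 over all tested genes. These counts lie near the 27.6% called higher and 31.1% called lower over all tested genes and are no result about the kinases as a list. MAP2K1, the kinase MEK1 that activates ERK, rose to 24.9 and 25.4 FPKM in KD, against 16.1 and 16.6 FPKM in CON (log2 difference 0.59, SE 0.0367, limma adjusted p = 4.08e-04). NLK, an atypical MAP kinase, fell to 10.97 and 11.6 FPKM in KD, against 13.8 and 14.7 FPKM in CON (log2 difference -0.31). The brain-enriched JNK gene MAPK10 (-0.39) and MAP2K4, which activates JNK and p38 (-0.23), also fell on the log2 scale. These counts rest on small differences and each library: 3 rose and 1 fell without CON replicate 2, 1 and 1 without CON replicate 3, 2 and 5 without KD replicate 2, and 2 and 3 without KD replicate 3.

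Of 20 other listed brakes of the pathway, 11 were tested, of which 5 rose, 1 fell and 5 were not called, with a median log2 difference of 0.22, against -0.02 over all tested genes, of which 27.6% were called higher and 31.1% lower. PEBP1, which holds RAF kinase inactive, rose to 117 and 124 FPKM in KD, against 72.8 and 73.1 FPKM in CON (log2 difference 0.71, SE 0.0343, limma adjusted p = 2.16e-04). SPRED1 (0.60) and SPRED2 (0.59), which help to switch off RAS, and PPM1B (0.48), a serine and threonine phosphatase, rose too. The gene that fell, named after its values were seen, was PTPN7, a blood cell tyrosine phosphatase of ERK and p38, at 7.33 and 7.28 FPKM in KD, against 8.08 and 8.39 FPKM in CON. Its call held in 4 of 13 alternatives and was lost when any 1 of the 4 libraries was left out.

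Genes known as outputs of ERK signalling were mostly too rare to test in this line: 3 of 13 were tested, of which 2 rose and 1 fell. All 3 also stand in the list of immediate early genes, and EGR1 passed the filter only through KD, so that its higher level was a condition of its entry. Over all tested genes, 27.6% were called higher and 31.1% lower in KD. EGR1, an early growth response factor, rose to 51.1 and 50.9 FPKM in KD, against 0.887 and 0.797 FPKM in CON (log2 difference 4.82). Because of how EGR1 entered, no p-value is given for it, and its count among those that rose is not weighed. IER3 rose to 14.0 and 11.98 FPKM in KD, against 1.97 and 3.06 FPKM in CON (log2 difference 2.01). MYC fell to 33.5 and 34.6 FPKM in KD, against 51.2 and 52.3 FPKM in CON (log2 difference -0.59, limma adjusted p = 2.89e-04). The outputs named next lay below the filter and were picked after their values were seen. The Sprouty gene SPRY4 was at 0.254 and 0.203 FPKM in KD, against 0 and 0.0122 FPKM in CON. PHLDA1 was at 0.980 and 1.40 FPKM in KD, against 0.139 and 0.117 FPKM in CON. ETV4 and ETV5 were also higher in both KD libraries than in both CON libraries. CCND1, EPHA2 and EPHA4 were lower in this sense, EPHA4 at 0.417 and 0.509 FPKM in KD, against 0.528 and 0.615 FPKM in CON. ETV4 was at 0.0329 and 0.0338 FPKM in KD, against 0 and 0 FPKM in CON. CCND1 was at 0.0179 and 0 FPKM in KD, against 0.127 and 0.0347 FPKM in CON. Such values are too low to be measured closely. Of all 11916 tested genes, 38.8% lay above and 42.9% below without overlap, so nothing is read from these positions. With no filter on low values, 4 of the outputs rose.

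Immediate early and heat shock genes were higher in the same KD libraries as DUSP1. Of all tested genes, 27.6% were called higher and 31.1% lower in KD, with a median log2 difference of -0.02. Of 17 tested immediate early genes 15 rose and 1 (MYC) fell, with a median log2 difference of 2.09, and 4 of the 17 passed the filter only through KD. JUN rose to 184 and 181 FPKM in KD, against 1.16 and 1.06 FPKM in CON (log2 difference 6.44, limma adjusted p = 2.10e-06). JUNB (2.75) and JUND (2.67) rose on the log2 scale as well, as did EGR1 (4.82), which passed the filter only through KD. Of 19 tested heat shock genes 18 rose and 0 fell, also 0 at an unadjusted limma p under 0.05, with a median log2 difference of 1.26, and 1 of the 19, HSPB1, passed the filter only through KD. HSPA8 rose to 275 and 279 FPKM in KD, against 51.7 and 53.1 FPKM in CON, and HSP90AA1 to 254 and 261 FPKM in KD, against 66.3 and 66.4 FPKM in CON. HSPA1A (5.35) and HSPA1B (5.41) rose too on the log2 scale, and as near-identical copies their separate levels are uncertain. Both lists respond to many kinds of signal and stress, and what part these have in the levels of DUSP1, DUSP2, DUSP5, DUSP6 and DUSP10 was not tested.

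**Figure D5:**
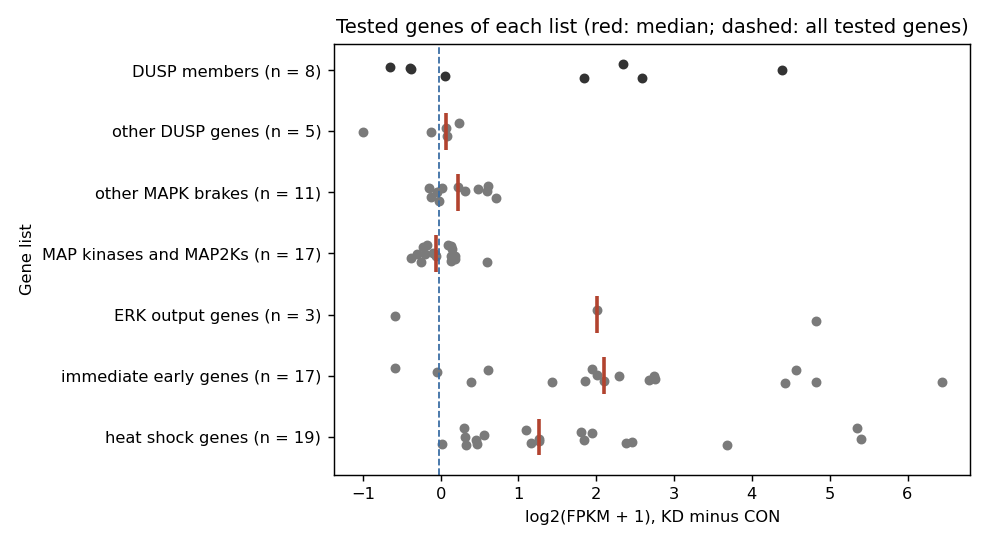
Difference of log2(FPKM + 1), KD minus CON, of each tested gene (1 point per gene, vertical jitter without meaning) in 7 lists; red bars are list medians, left out for the members, and the dashed line is the median of all tested genes at -0.02. The medians are 2.09 for immediate early, 1.26 for heat shock and -0.07 for MAP kinases and MAP2 kinases.

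The tested genes whose pattern over the 4 libraries came closest to DUSP1, by Euclidean distance of log2(FPKM + 1) after the mean of each gene was taken off, were FOS (distance 0.0530), FOSB (0.199), EGR1 (0.432) and the small nucleolar RNA gene SNORD14E (0.468). FOS stood at a mean of 21.2 FPKM in KD and 0.0338 FPKM in CON, so it matched DUSP1 in the difference on this scale and not in level. For DUSP2 they were ASTL (0.0380), TFRC (0.0946), JUND (0.1001) and the unnamed gene ENSG00000287064 (0.139). For DUSP5 they were KLF10 (0.0674), HSPA8 (0.0946), PER1 (0.0951) and MAFA (0.145). FOS, FOSB, EGR1, SNORD14E, ASTL and MAFA had CON means under 1 FPKM, so they were among the searched genes only through their level in KD. With 4 libraries in 2 groups, such likeness reflects little more than a similar difference between KD and CON.

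The authors' deposited table marks DUSP1, DUSP2, DUSP5, DUSP6 and DUSP10 as significant and up. In the authors' deposited table DUSP12, DUSP16 and DUSP28 have q-values of 4.29e-06, 8.13e-05 and 0.00256 with fold changes of 0.600, 0.683 and 0.648, and none of these is marked significant. The authors' deposited table gives DUSP22 a q-value of 0.255. These folds come from the same FPKM as the ratios above and are no separate evidence.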

How the data were processed

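Polyadenylated RNA of SU-DHL-4 was sequenced with a dUTP-marked second strand, per the labels' protocols. GRCh38, fastp, HISAT2, StringTie and edgeR are listed in the submitters' processing notes, with no version or role. No source used here gives the annotation release or the strand setting. The authors deposited FPKM per gene and sample, per the file headers. Beside them, the authors' deposited table gives each gene's ratio of means (linear and log2) and its p-value and q-value. Low values showed no steps of whole reads (of 5706 low single-transcript genes, 35 had the most frequent KD replicate ratio), so depth is unknown.

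The members and lists were chosen with earlier results of these data known. The 11916 genes that reached 1 FPKM in at least 2 libraries, of 29489, were tested on log2(FPKM + 1) with limma 3.58.1 (R 4.3.3), with a mean-variance trend, two-sided, Benjamini-Hochberg adjusted over all tested genes at 0.05. Residual degrees of freedom were 2 and prior ones 2.85, so a p-value here reflects library spread alone. The fit was tested on simulated data. Named genes are the members, the other tested DUSP genes, the called genes with the 4 smallest adjusted p of each list, ZHX2, SLC3A2 and, for the 3 members with the largest differences, the 4 genes nearest in pattern; any others were named after their values were seen or because they overlap a member. A ratio is a ratio of mean FPKM. Promoters came from RefSeq (GRCh38.p14) and gene models from GENCODE 29. Alternatives changed the pseudocount, filter, scaling, trend, block and libraries. A gene of the kinase list is counted but not reported here by name.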

Additional observations from a re-analysis of the deposited data

How the results depend on the processing

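DUSP1, DUSP2, DUSP5 and DUSP10 were higher and DUSP12, DUSP16 and DUSP28 lower in KD under every alternative that could be computed for them (12 or 13 each), and DUSP6, which enters only with no filter, was higher. Much of this was fixed in advance. The filters, the trend and the replicate block do not change a log2 difference. Leaving out 1 library cannot turn the direction of a gene whose groups do not overlap. The members were picked on this contrast, so the kept directions are no separate evidence. With a pseudocount of 0.1 the log2 difference was 4.93 for DUSP1, 3.79 for DUSP5 and 2.65 for DUSP10, and with FPKM rescaled without MT- genes, where the pseudocount weighs less, it was 4.91, 3.57 and 2.57. Leaving out 1 library moved DUSP12 between -0.80 and -0.51, and DUSP22 between 0.0047 and 0.099. The ratio of summed DUSP FPKM was 2.68 when FPKM was rescaled without MT- genes and 2.51 with all 6 columns, against 2.58, and 2.54 to 2.61 leaving out 1 library. Replicate 1 held no measurement of its own, so the ratio with all 6 columns follows from its divisors, 1.2 in KD and 1.1 in CON. Counts and calls with all 6 columns likewise rest on no added measurement. Of the other DUSP genes 1 rose with no filter (DUSP26) and 1 with the replicate block (DUSP14), and 0 to 1 leaving out 1 library. Of these genes 0 fell at a mean of at least 5 FPKM, where DUSP8P5 was not tested, and 1 to 2 leaving out 1 library; with no filter DUSP8P5 lost its call and DUSP5P1 fell. For MAP kinases and MAP2 kinases, 3 rose with no filter, 2 with no trend, 1 with all 6 columns and 1 to 3 leaving out 1 library, while 3 fell with no filter, 3 when rescaled and 1 to 5 leaving out 1 library. The fall of PTPN7 was lost (count 0) with no filter, median-ratio scaling, rescaling, the replicate block and all 6 columns, and leaving out any 1 library; the count of brakes that fell was then 0 to 1, the 1 being ILKAP without KD replicate 2. With no filter 4 ERK outputs rose. The causes were not tested. Over all genes, 4785 to 6973 were called, against 6986 of 11916 tested. The number tested changed with the filter, so these counts are not directly comparable. The 4785 were of 6983 genes tested at a mean of at least 5 FPKM, and with no filter 5459 of 29489 were called. Replicates 2 of KD and CON did not deviate together (r = 0.0047 across 11916 genes). This shows no large shared deviation but cannot tell what the replicate numbers stand for. The replicate block called 6582 genes. The number of reads behind each FPKM is unknown, which limits DUSP6 and the CON levels of DUSP5 most.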

Other observations

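The 3′ untranslated region of DUSP1, in the GENCODE 29 transcript with the longest coding sequence, held 3 copies of TATTTAT, the core of AU-rich elements that shorten the life of many messenger RNAs, and that of DUSP2 held 1 copy. The letters were searched on the transcript strand alone. The other 7 members with values held 0 copies, DUSP5, DUSP6 and DUSP10 among them. Of 9731 tested genes with a coding transcript, 29.8% held at least 1 copy and 5.09% held 3 or more. A match is a description of the letters, and RNA life was not measured.

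Among the other DUSP genes under the filter, DUSP26, DUSP5P1 and DUSP18 had library values that did not overlap between the groups. DUSP5-DT, DUSP8, DUSP15 and DUSP19 overlapped. Of all 11916 tested genes, 38.8% lay above and 42.9% lay below without overlap, so nothing is read from the lack of overlap. DUSP18 was at 0.740 and 0.893 FPKM in KD, against 1.25 and 0.912 FPKM in CON. DUSP26, an atypical phosphatase best known from brain, was at 0.468 and 0.376 FPKM in KD, against 0.0359 and 0.0670 FPKM in CON. The pseudogene DUSP5P1 was at 0.174 and 0.186 FPKM in KD, against 0.605 and 0.822 FPKM in CON, opposite to its parent gene DUSP5. The divergent transcript DUSP5-DT was at 0 and 0.0170 FPKM in KD, against 0 and 0.0452 FPKM in CON, while DUSP5 itself was 17.5-fold higher in KD. These genes were picked after their values were seen.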
